A study of Mus musculus with 2 samples.

Results

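The Ly6 genes encode small cell-surface proteins that share a cysteine-rich fold and are held in the membrane by a glycosylphosphatidylinositol (GPI) lipid anchor. In mice many of them lie side by side and are used to tell leukocytes apart: antibodies to Ly6C and Ly6G separate monocytes from neutrophils, and Ly6a, also called Sca-1, marks blood stem cells and activated T cells. Several family members are raised by interferons. The family was taken as 7 genes named by their symbols among the 31053 genes of the deposited count matrix: Ly6a, Ly6c1, Ly6c2, Ly6d, Ly6e, Ly6g and Ly6i. Each of the 7 symbols matched a single gene, and none was used to sort cells into types.

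MTC-Q1, an oral cancer line of the mouse, was grown under the skin of C57BL/6 mice. The labels give 2 groups with 1 library each: tumours of cells lacking the microRNA miR-21 (MTC-Q1 miR-21 KO) and of unmodified cells (MTC-Q1 WT). The genotype is that of the implanted cells, all tumours grew for 2 weeks, and all hosts received cisplatin, a DNA-crosslinking drug, at 5 mg/kg 72 hours before the cells were taken. Microbeads then picked out CD45+ cells, the leukocytes, from tissue cleared of dead cells, and transcript 3′ ends were sequenced in droplets. The sources used here do not give the age of the mice, the number of tumours behind a library or whether the knockout line is 1 clone.

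A number at the end of each cell barcode tells the 2 libraries apart, but which number belongs to which genotype is unknown. They are therefore called library 1 and library 2, and no value below speaks of miR-21. Library 1 held 5320 barcodes with a median of 7169 unique molecular identifiers (UMIs, counted RNA molecules) and library 2 held 7194 with a median of 15248. Only 8 barcode sequences occurred in both, and 4977 and 6740 cells were kept. The libraries also differed in make-up: library 1 held 441 B cells and 1265 naive-type CD8 T cells by the gates used here, and library 2 held 0 and 33. With 1 library per group there is no replicate check, so no p-value is given. Intervals are exact 95% intervals that cover counting error only.

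Cells were assigned to 18 classes by limits on the summed UMIs of marker lists that hold no Ly6 gene. A level is the sum of a gene's UMIs in the cells of a class as counts per 1e+06 UMIs of that class (CPM), and the number of cells in each class is part of the plot of levels by class. Marker levels are given here as a description. The lists that set the gates also fix which classes are high in them, so their levels do not check the labels. Ptprc was not used in the fibroblast gate. NK-gated cells carried 5441 and 5122 CPM of the NK list, in library 1 and library 2, and fibroblast-gated cells carried 34636 and 45357 CPM of the fibroblast list with 7.98 and 17.9 CPM of Ptprc, the gene of CD45. These cells, and a further class low in Ptprc and, beside the fibroblast gate, low in collagen genes (64 and 404 cells), thus lay outside the CD45+ type named in the labels. This class, called Ptprc-low collagen-low, still carried 6559 and 3558 CPM of the fibroblast list, against at most 40.9 CPM in any leukocyte gate. The gate limits set the direction of this contrast. Free RNA in the droplets, estimated from markers that a class should lack, made up 2.31% and 5.31% of the UMIs of macrophage-gated cells and 8.13% in B-gated cells. Its highest estimate was 11.2%, in the cDC1-gated cells of library 2. The estimate takes all UMIs of those markers in a class as free, and free RNA as having the make-up of the library. It is too high where some of those UMIs are not free. Where free RNA has another make-up, it can be too high or too low. Monocyte and macrophage lists overlapped, and 39.3% and 42.7% of cells in the gate for both lists lay near its limits.

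The 7 genes sit on mouse chromosome 15 within 397071 bases (GRCm38, the mm10 build). From left to right they are Ly6d at chr15:74762056-74763620 on the minus strand, Ly6e at chr15:74955051-74959905 on the plus strand, Ly6i at chr15:74979534-74983430, Ly6a at chr15:74994877-74998031, Ly6c1 at chr15:75044018-75048830 and Ly6c2 at chr15:75108158-75111970, all 4 on the minus strand, and Ly6g at chr15:75155240-75159126 on the plus strand. Each has 3 coding exons. By coding sequence Ly6a, Ly6c1, Ly6c2, Ly6g and Ly6i form a close set, with 78.1% to 97.7% identical bases in pairwise alignments, whereas Ly6d and Ly6e match every other member at 46.9% to 53.5%. Genomic distance does not order the sequences: Ly6e lies 19628 bases from Ly6i yet shares 52.0% with it, against 78.5% for Ly6g and Ly6i at opposite ends of that set.

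Ly6c1 and Ly6c2 need separate care, because a sequencing read has to tell them apart. The coding sequences of their principal transcripts are 393 bases each without the stop codon and differ at 9 positions. Bases 1 to 300 are shown because they make plain how few letters do so. They are read 5′ to 3′ from the GENCODE M21 annotation of GRCm38, chromosome 15, minus strand, and capitals mark the 7 differing positions among them.
Ly6c1: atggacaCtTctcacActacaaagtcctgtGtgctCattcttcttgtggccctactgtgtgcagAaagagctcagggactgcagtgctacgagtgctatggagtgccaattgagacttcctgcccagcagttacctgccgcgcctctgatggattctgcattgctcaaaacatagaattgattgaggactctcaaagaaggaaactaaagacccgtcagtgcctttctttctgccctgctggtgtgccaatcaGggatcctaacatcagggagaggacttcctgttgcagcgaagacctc
Ly6c2: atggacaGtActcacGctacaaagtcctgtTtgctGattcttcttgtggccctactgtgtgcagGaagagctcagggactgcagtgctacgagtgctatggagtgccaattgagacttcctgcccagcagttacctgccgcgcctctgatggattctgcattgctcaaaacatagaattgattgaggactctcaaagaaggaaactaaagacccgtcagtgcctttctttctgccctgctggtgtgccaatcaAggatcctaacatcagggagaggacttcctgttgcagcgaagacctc
A 3′ library reads mainly the far end of the transcript, where the last 300 bases of the 2 genes were 93.5% identical. There, 65 of the 241 stretches of 60 bases in Ly6c1 also occurred in Ly6c2, while no other pair of members shared any. The promoters listed by RefSeq (GRCm38.p6) are less alike, at 73.8% over 282 aligned bases. Some reads could thus have been lost or counted to the wrong gene of this pair, and the sources used here do not say how such reads were counted.

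Levels were ranked over the 15 classes that held 10 or more cells in both libraries. There 6 of the 7 genes reached 10 CPM, and 4 of those 6 peaked in the same class in library 1 as in library 2. These were Ly6a and Ly6c1 in fibroblast-gated cells and Ly6c2 and Ly6d in plasmacytoid dendritic cells (pDCs, dendritic cells that make type I interferon). Ly6e peaked in macrophage-gated cells of library 1 and pDC-gated cells of library 2, and Ly6i in one or the other of the monocyte gates. Ly6g was close to absent.

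**Figure D1:**
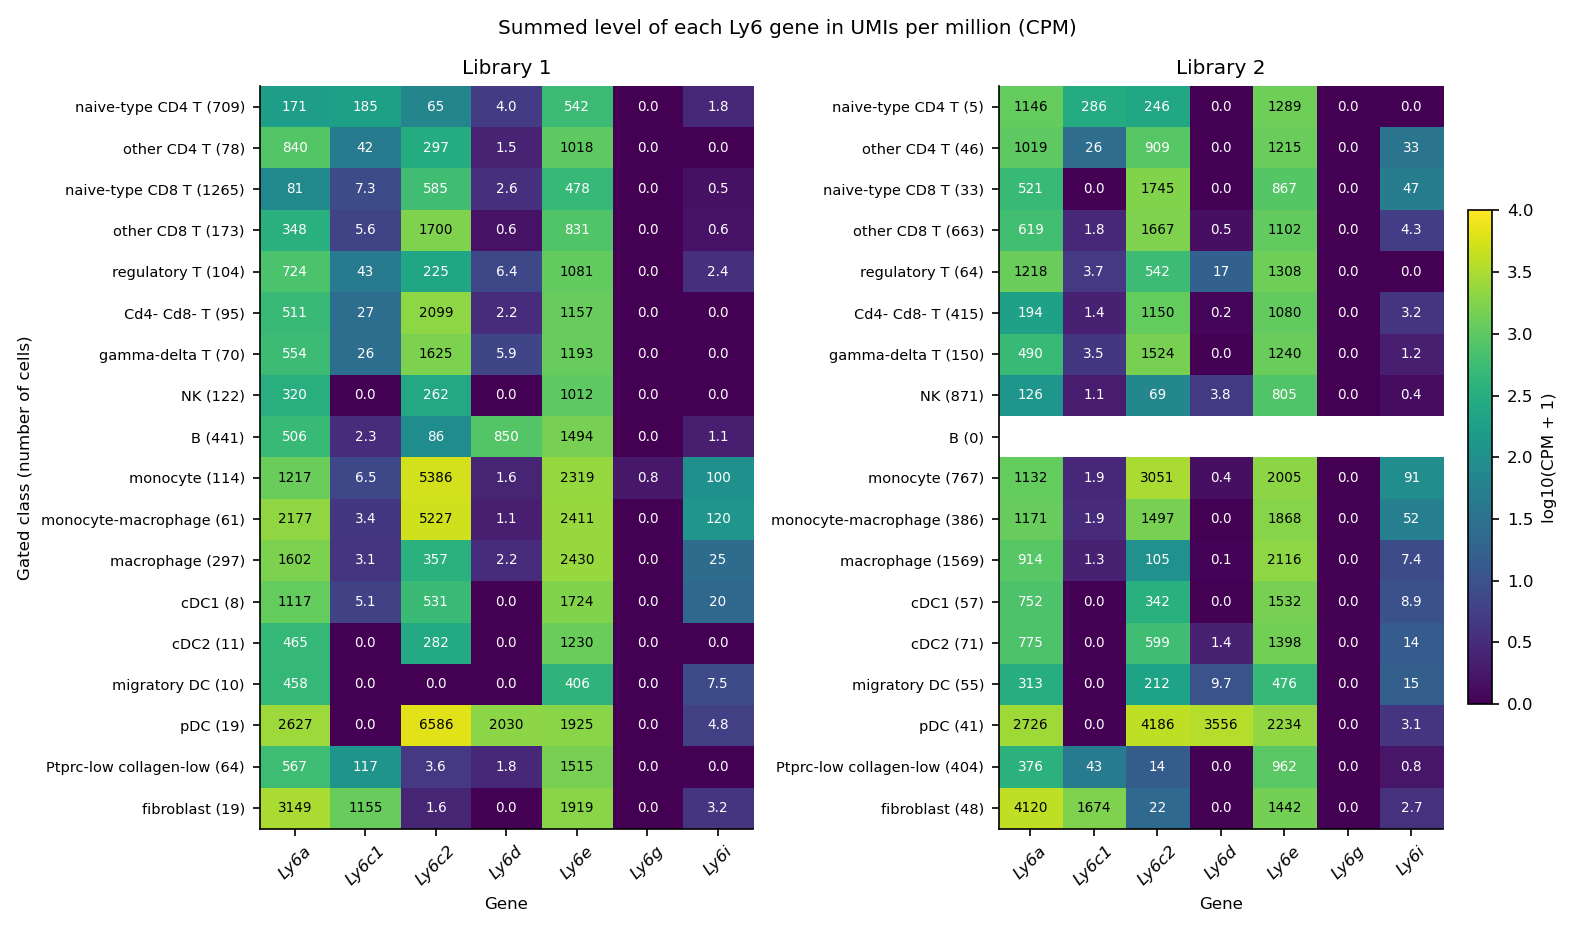
Level of each of the 7 Ly6 genes (columns) in 18 gated classes (rows, with the number of cells), in CPM as printed in each cell, for library 1 on the left and library 2 on the right. Colour is log10(CPM + 1), and the blank row is the B gate of library 2, which held 0 cells. Ly6d is bright in B-gated and pDC-gated cells, Ly6c1 in fibroblast-gated cells, and Ly6e in nearly every row.

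Ly6a, or Sca-1, was highest in cells with almost no Ptprc. Its level was 3149 CPM in the 19 fibroblast-gated cells of library 1, where a single cell gave 26.3% of its UMIs, and 4120.4 CPM in the 48 of library 2. Of these cells, 26.3% and 6.25% lay near a gate limit. Among cell clusters, used as checks only, cluster 22 held 63.2% and 95.8% of them. Cluster 15 held 31.6% and 4.17%, and 64.1% and 59.4% of the Ptprc-low collagen-low cells. The part of this mix in the levels was not tested. pDC-gated cells followed with 2627 and 2726 CPM. The interval of the leader stood clear of that of the second class in each library. Monocyte-gated cells had 1217 and 1132 CPM and macrophage-gated cells 1602 and 914 CPM. Among the T cells of library 1 the naive-type gates were lowest. Naive-type CD8 cells had 81.3 CPM (75.8 to 87.1), naive-type CD4 cells 171 CPM, other CD8 cells 348 CPM, T cells without Cd4 or Cd8 UMIs 511 CPM (466 to 560), gamma-delta T cells 554 CPM, regulatory T cells 724 CPM (677 to 773) and other CD4 cells 840.0 CPM (773 to 911). The intervals of the T cells without Cd4 or Cd8 UMIs and the gamma-delta T cells overlapped, and no other neighbours' did. Library 2 had another order. There T cells without Cd4 or Cd8 UMIs were lowest at 194 CPM, followed by gamma-delta T cells at 490.0 CPM, naive-type CD8 cells at 521 CPM, other CD8 cells at 619 CPM, other CD4 cells at 1019 CPM, the 5 naive-type CD4 cells at 1146 CPM and regulatory T cells at 1218 CPM. NK-gated cells were low in both libraries, at 320.4 and 126 CPM, and were the lowest class of library 2.

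Ly6c2 encodes the monocyte antigen Ly6C together with Ly6c1, and it was the more abundant of these in every leukocyte gate except naive-type CD4 cells and the migratory dendritic cells of library 1, which held neither. It was highest in pDC-gated cells, at 6586 CPM in library 1 against 4186 CPM in library 2, and next in monocyte-gated cells, at 5386 and 3051 CPM. Macrophage-gated cells had 357 and 105 CPM. With each cell thinned to 4000 UMIs, 94.7% and 87.9% of monocyte-gated cells held a Ly6c2 UMI, against 24.6% and 16.3% of macrophage-gated cells. Unthinned, the shares were 98.2% and 92.4%, against 42.4% and 34.4%. In the Ptprc-low collagen-low cells, which should lack the gene, the share was 1.56% and 4.46%, at median depths of 52648 and 50664 UMIs before thinning, against 9811 and 7749 in monocyte-gated cells, and unthinned it was 20.3% and 35.9%.

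Among the lymphocyte gates, Ly6c2 was highest in the CD8 gates, the gamma-delta gate and the T cells without Cd4 or Cd8 UMIs. Other CD8 cells had 1700.2 and 1667 CPM, naive-type CD8 cells 585 and 1745 CPM (on 33 cells in library 2), gamma-delta T cells 1625 and 1524 CPM, and T cells without Cd4 or Cd8 UMIs 2099 and 1150.2 CPM. Other CD4 cells had 297 and 909 CPM and regulatory T cells 225 and 542 CPM. Cluster 7 held the most gamma-delta T cells (38.6% and 57.3%) and T cells without Cd4 or Cd8 UMIs (32.6% and 41.2%). In library 1, cluster 2 held 34.3% of gamma-delta T cells and 94.1% of naive-type CD8 cells. Cluster 3 held 22.1% of T cells without Cd4 or Cd8 UMIs and 92.9% of naive-type CD4 cells there. The part of this mix in the Ly6c2 levels was not tested. In library 1, 48.1% of thinned naive-type CD8 cells (45.4 to 50.9) but 7.48% of naive-type CD4 cells (5.65 to 9.66) held a Ly6c2 UMI, and unthinned 55.5% and 10.4% did. B-gated cells of library 1 had 86.3 CPM, of which free RNA was estimated to give 55.2 CPM.

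Ly6c1 had a nearly complementary pattern. Fibroblast-gated cells had 1155 CPM in library 1 and 1674 CPM in library 2, and the Ptprc-low collagen-low cells came second with 117 and 42.9 CPM. The lead of the fibroblast-gated cells was 9.89-fold and 39.1-fold, in a gate whose mix of clusters differed between the libraries. Among leukocytes the naive-type CD4 cells of library 1 stood apart, with 832 UMIs in 709 cells, or 185 CPM (172 to 198). Naive-type CD8 cells of the same library, with more cells, had 72 UMIs and 7.26 CPM. Thinned to 4000 UMIs, 40.6% of naive-type CD4 cells (37.0 to 44.3) held a Ly6c1 UMI, against 1.90% of naive-type CD8 cells, and unthinned 48.9% did. pDC-gated cells held 0 Ly6c1 UMIs in both libraries, which allows up to 14.3 and 9.40 CPM.

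The split between the Ly6c genes therefore depended on the class. It is given as the share of Ly6c1 in the summed 3′ UMIs of both, which are not scaled by length, the transcripts being 844 and 822 bases long. Over all cells Ly6c1 gave 8.39% of the UMIs of the pair in library 1 and 5.06% in library 2. The share was 99.9% and 98.7% in fibroblast-gated cells, 97.0% and 75.0% in Ptprc-low collagen-low cells, and 73.9% (71.2 to 76.4) in naive-type CD4 cells of library 1. It was 0.120% and 0.0636% in monocyte-gated cells and 1.22% in naive-type CD8 cells of library 1. Fibroblast-gated cells held 1 and 33 Ly6c2 UMIs beside 724 and 2523 Ly6c1 UMIs. The free-RNA estimate for Ly6c2 there, 32.6 and 30.4 CPM, was above the measured 1.60 and 21.9 CPM, so it was too high in this class. Monocyte-gated cells held 8 and 13 Ly6c1 UMIs beside 6674 and 20435 of Ly6c2. In these opposite classes the count of the minor gene bounds how many UMIs of the major gene could have been counted to the wrong one.

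Within naive-type CD4 cells of library 1 the 2 genes were seldom found together. Of 709 thinned cells, 271 held only Ly6c1, 36 only Ly6c2, 17 both and 385 neither. The share with both, 2.40%, was near the 3.04% that independent presence would give. A Ly6c2 UMI was found in 5.90% of the cells with Ly6c1 and in 8.55% of the cells without it. In library 2 the naive-type CD4 gate held 5 cells, and all 14 of its Ly6c1 UMIs came from a single cell, so no pattern is read from them.

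**Figure D2:**
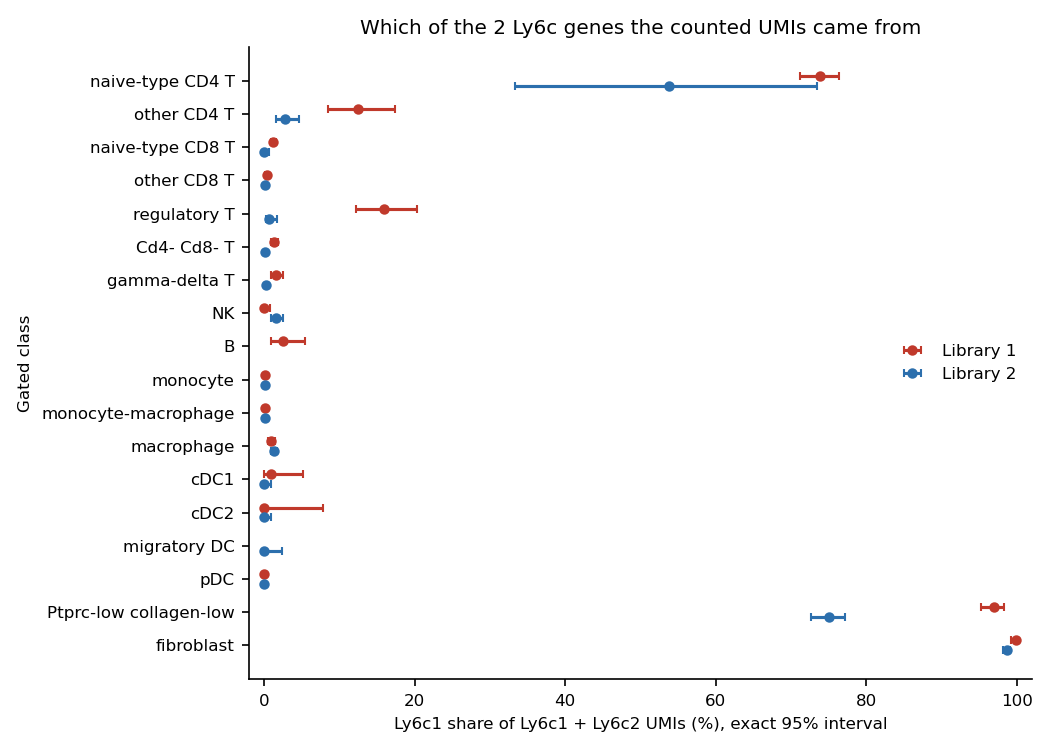
Share of Ly6c1 in the summed Ly6c1 and Ly6c2 UMIs (horizontal axis, percent) for each gated class (vertical axis), with library 1 in red and library 2 in blue and exact 95% intervals. Fibroblast-gated and Ptprc-low collagen-low cells lie at 75.0% or above, naive-type CD4 T cells of library 1 at 73.9%, and every other class lies at 16.0% or below. The naive-type CD4 point of library 2, at 53.8%, comes from 5 cells, with all Ly6c1 UMIs from a single cell, and no pattern is read from it.

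The classes that held most UMIs of a gene also depended on how many cells a class had. Fibroblast-gated cells gave 22.5% of the Ly6c1 UMIs of all kept cells in library 1 and 58.2% in library 2, and naive-type CD4 cells gave 25.8% in library 1. Macrophage-gated cells gave 22.9% and 33.2% of Ly6e UMIs, and monocyte-gated cells 22.3% and 38.1% of Ly6i UMIs.

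Ly6d, used in mice to mark lymphoid progenitors committed to the B lineage, was found among the gated cells almost entirely in pDC-gated and B-gated cells. pDC-gated cells had 2029.6 CPM in library 1 (425 UMIs in 19 cells) and 3556 CPM in library 2 (1135 UMIs in 41 cells). B-gated cells, found in library 1 alone, had 850.2 CPM and 52.8% of the Ly6d UMIs of that library, and 86.4% of them held a Ly6d UMI after thinning. Elsewhere no class with at least 10 cells passed 6.45 CPM in library 1 or 16.6 CPM in library 2. The lead of pDC-gated cells over the second ranked class was 315-fold and 215-fold, B-gated cells not being ranked because library 2 had none. Low values came from few cells: of 60 Ly6d UMIs in the 871 NK-gated cells of library 2, 71.7% came from a single cell.

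Ly6e was the family member found everywhere. All 15 ranked classes lay between 406 and 2430.0 CPM in library 1 and between 476 and 2234 CPM in library 2, so the lowest kept more than 0.1 of the highest. Ly6e encodes a GPI-anchored protein that limits the entry of several viruses. Macrophage-gated cells led in library 1 with 2430.0 CPM, but their interval overlapped that of cells with both the monocyte and macrophage lists, at 2411 CPM. pDC-gated cells led in library 2 with 2234 CPM, again with an interval that overlapped the next class, macrophage-gated cells at 2116 CPM. Migratory dendritic cells were lowest in both, at 406 and 476 CPM. After thinning, 77.2% of naive-type CD8 cells of library 1 held a Ly6e UMI, against 99.7% of macrophage-gated cells.

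Ly6i was highest in the monocyte gates. Monocyte-gated cells had 100.1 CPM in library 1 (124 UMIs) and 90.9 CPM in library 2 (609 UMIs). Cells with both monocyte and macrophage lists had 119.96 and 52.1 CPM, and macrophage-gated cells 25.1 and 7.40 CPM. The intervals of the 2 leading classes overlapped in library 1 and not in library 2. Thinned to 4000 UMIs, 21.9% and 17.1% of monocyte-gated cells held a Ly6i UMI. Some T cells of library 2 also carried the gene: naive-type CD8 cells had 46.9 CPM (26.8 to 76.1), from 16 UMIs in 2 of 33 cells, and other CD4 cells 33.2 CPM, from 18 UMIs in 3 of 46 cells. The first interval overlapped that of cells with both lists (46.3 to 58.4), and in library 1 these T cell gates had 0.504 and 0.0 CPM. With only cells of 10000 UMIs or more, Ly6i was highest in other CD4 cells in library 2. pDC-gated cells, which led Ly6c2, held 1 Ly6i UMI in each library.

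Ly6g, the antigen used to identify neutrophils, was represented by 1 UMI in each library after cell filtering, in a monocyte-gated cell of library 1 and a macrophage-gated cell of library 2. Before filtering there were 1 and 3 UMIs. Other neutrophil genes were checked. Retnlg, a gene enriched in neutrophils, had 0 UMIs in library 1 and 87 in library 2, from 8 cells. S100a8, a calcium-binding protein abundant in neutrophils, had 30 UMIs in library 1 and 2139 in library 2. Among all barcodes before filtering, 1 of library 1 and 8 of library 2 held at least 3 Retnlg UMIs, and these 8 held 3 Ly6g UMIs in 222383 UMIs. Ly6g levels in neutrophils cannot be described from so few cells.

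Between monocytes and macrophages the family members took different courses. Cells of the monocyte, macrophage and double gates were placed in 6 bins by UMIs of a list of 6 macrophage genes (C1qa, C1qb, C1qc, Adgre1, Mrc1 and Apoe) per 10000. In library 1, Ly6c2 was 5651 CPM in the 97 cells of the lowest bin, 5146 CPM in the third, 1656 CPM in the fourth, 213 CPM in the fifth and 27.4 CPM in the 79 cells of the highest. In library 2 the same bins had 2847, 2242, 663, 164 and 42.1 CPM. The second bin had 3942 and 4032 CPM. Within these gates Ly6c2 was thus high where macrophage genes were few, and lowest where they were most abundant. Free-RNA estimates for macrophage-gated cells were 15.7 and 32.1 CPM. Cells below 60 macrophage-list UMIs per 10000 entered only through the monocyte gate, so the low bins hold monocyte-gated cells by selection. Cells from 60 to 100 entered only through the double gate, which also asks for 30 monocyte-list UMIs per 10000. Macrophage-gated cells enter from 100 up, inside the third bin, and lie below that monocyte limit. The part of these limits in the Ly6c2 levels of the bins was not tested. Ly6i was 114 and 71.0 CPM in the lowest bin and 8.14 and 6.78 CPM in the highest. Ly6e stayed between 2130.3 and 2748 CPM in library 1 and between 1873 and 2218 CPM in library 2. Ly6a took neither course. In library 1 it was 1223 CPM in the lowest bin and 1776 CPM in the highest, and in library 2 it was 1104 CPM in the lowest, 1427 CPM in the third and 673 CPM in the highest. The bins rank cells by list content and are not a time course, and the second bin of library 1 held 17 cells with 5 Ly6i UMIs.

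**Figure D3:**
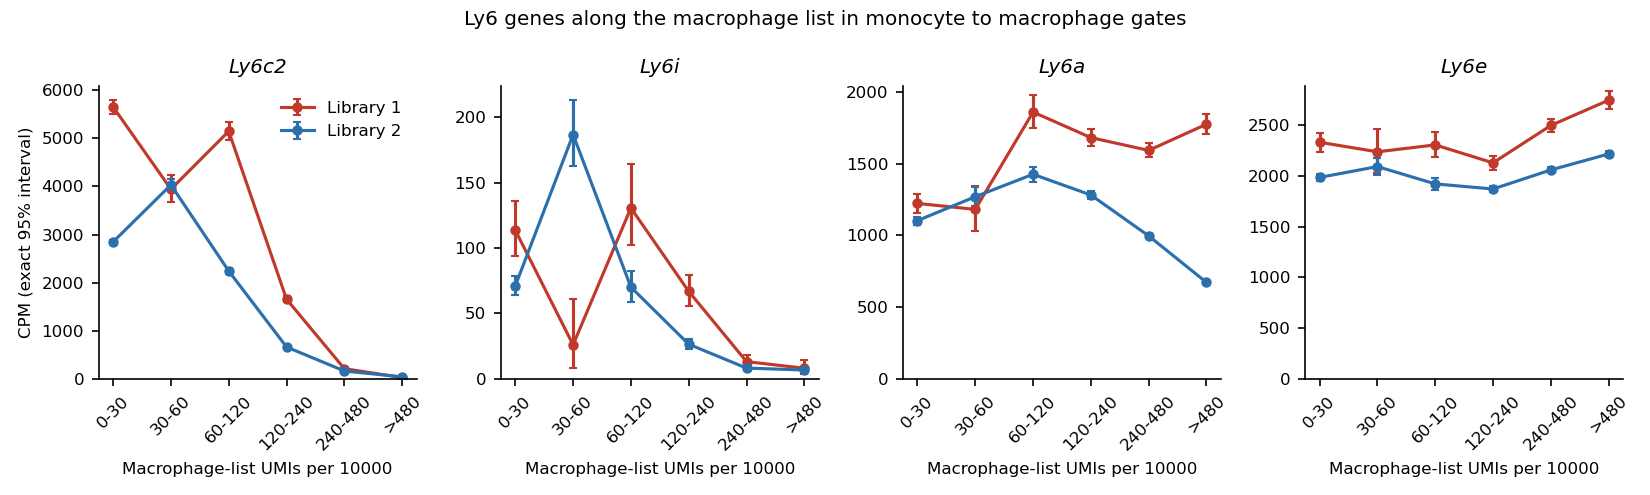
CPM of Ly6c2, Ly6i, Ly6a and Ly6e (vertical axes, linear, with exact 95% intervals) against the number of macrophage-list UMIs per 10000 in the cell (horizontal axes), for library 1 in red and library 2 in blue. Ly6c2 and Ly6i are lowest at the right end in both libraries, Ly6c2 at 27.4 and 42.1 CPM, Ly6e stays between 1873 and 2748 CPM, and the libraries separate for Ly6a at the right end, at 1776 and 673 CPM.

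The libraries were then set side by side in the 11 classes that held 30 or more cells in both. A difference was called where it was at least 2-fold, its counting interval excluded 1.5-fold and the class held at least 100 UMIs of the gene. Of 37 member and class pairs so measured, 13 were called, 8 higher and 5 lower in library 1, beside 2.95% to 10.4% of all genes measured in a class. Ly6c2 had 7 of them, Ly6a 3, Ly6i 2 and Ly6c1 1. Ly6e had 0 of 11, with log2 ratios of -0.86 to 0.66 for library 1 over library 2, and its median over classes was 0.10. A call compares these 2 libraries and not the conditions.

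In the CD4, CD8 and regulatory T cell gates every called difference was lower in library 1. Ly6c2 in other CD4 cells was at 297 CPM in library 1 against 909 CPM in library 2, with a log2 ratio of -1.61 (-1.86 to -1.37), where 1 of 3 members was called against 5.73% of all 1640 genes measured (1.77% higher and 3.96% lower in library 1). The NK list of these cells was at 96.1 CPM in library 1 against 1339 CPM in library 2 and their effector list at 1028 and 3415 CPM. Clusters 3 and 16 held 29.5% and 16.7% of the other CD4 cells of library 1 and 0 of those of library 2. The part of these differences in the ratio was not tested. In regulatory T cells it had 225 and 542 CPM, a log2 ratio of -1.27 (-1.48 to -1.06), where 1 of 3 members and 10.4% of genes were called (4.88% higher and 5.54% lower in library 1). In other CD8 cells 0 of 3 members were called, against 8.07% of genes (1.93% higher and 6.14% lower in library 1), and Ly6c2 had 1700.2 and 1667 CPM, a log2 ratio of 0.03 (-0.03 to 0.08), though cluster 2 held the most of these cells in library 1 (43.9%) and cluster 8 in library 2 (34.7%). The regulatory T cells of library 1 were mostly in cluster 16 (88.5%), which held 28.1% of those of library 2, and their effector list was at 627 CPM in library 1 against 3107 CPM in library 2 and their NK list at 16.9 and 255 CPM. The part of these differences in the Ly6c2 ratio was not tested. With only cells of 10000 UMIs or more the ratio was -0.99 and not called.

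The largest T cell difference, of Ly6a, was in the naive-type CD8 gate, where 2 of 3 members were called against 10.4% of genes (2.03% higher and 8.34% lower in library 1). Ly6a was at 81.3 CPM in library 1 against 521 CPM in library 2, with a log2 ratio of -2.68 (-2.92 to -2.44). Ly6c2 had 585 and 1745 CPM, a log2 ratio of -1.58 (-1.70 to -1.45). These rest on 33 cells of library 2, 33.3% of them near a limit of the gate, against 1265 cells of library 1. Cluster 2 held 94.1% of the library 1 cells and 33.3% of the library 2 cells. The effector list was at 540 CPM in library 1 against 3760 CPM in library 2, the NK list was at 48.0 and 925 CPM, and 7 of 15 interferon-response genes were called lower in library 1, among them Isg15 at 110.4 and 571 CPM. Their part in the ratios was not tested. With every gate limit made stricter, 3 cells of library 2 remained and the Ly6a log2 ratio was 0.49 and the Ly6c2 ratio -0.48, neither called. Where cells also had to match the majority of their cluster the Ly6a ratio was -0.51, and with only cells of 10000 UMIs or more the Ly6c2 ratio was -0.85, again not called.

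NK-gated cells went in the opposite direction, with 2 of 3 members called against 3.69% of genes (2.69% higher and 1.00% lower in library 1). Ly6c2 was at 262 CPM in the 122 NK-gated cells of library 1 against 69.2 CPM in the 871 of library 2, with a log2 ratio of 1.92 (1.77 to 2.08), and a single cell gave 25.7% of its UMIs in library 1. Ly6a had 320.4 and 126 CPM, a log2 ratio of 1.35 (1.22 to 1.48), which was 0.72 and not called with the stricter gate. After thinning, 18.9% and 9.76% of these cells held a Ly6c2 UMI, and unthinned 26.2% and 23.0% did. The NK list was at 5441 and 5122 CPM, and 4 of 15 interferon-response genes (Stat2, Ifit1, Ifit3 and Iigp1) were called higher in library 1 and 0 lower. In library 1 and library 2, cluster 4 held 87.7% and 73.0% of the NK-gated cells and cluster 12 held 12.3% and 25.7%. Cells with cell cycle markers made up 11.5% and 24.0%. The part of these differences in the Ly6c2 and Ly6a ratios was not tested. T cells without Cd4 or Cd8 UMIs had 1 of 3 members called against 5.54% of genes (3.01% higher and 2.54% lower in library 1), Ly6a with 511 and 194 CPM and a log2 ratio of 1.40 (1.24 to 1.55). Their NK list was at 450.3 CPM in library 1 against 1491 CPM in library 2. Cluster 3 held 22.1% of them in library 1 and 0 in library 2, cluster 4 held 4.21% and 13.5%, and cluster 12 held 0 and 6.75%. The part of these differences in the Ly6a ratio was not tested. Gamma-delta T cells had 0 of 3 called against 5.15% of genes (2.82% higher and 2.33% lower in library 1).

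In the myeloid gates every measured member was higher in library 1, although few differences reached the limit. Monocyte-gated cells had 0 of 4 called, against 2.95% of genes (1.79% higher and 1.16% lower in library 1), and Ly6c2 came closest with a log2 ratio of 0.82 (0.78 to 0.86). Cells with both lists had 2 of 4 called, against 3.01% of genes (1.75% higher and 1.26% lower in library 1), with Ly6c2 at 5227 CPM in library 1 against 1497 CPM in library 2 and a log2 ratio of 1.80 (1.75 to 1.86), and Ly6i at 1.20 (0.87 to 1.53). With equal weight for each cell the Ly6i ratio was 0.96 and not called. Macrophage-gated cells had 2 of 4 called, against 3.51% of genes (2.22% higher and 1.28% lower in library 1), Ly6c2 at 1.76 (1.68 to 1.84) and Ly6i at 1.76 (1.44 to 2.08). Macrophage content differed within these gates. In cells with both lists the macrophage list was at 16324 CPM in library 1 against 24683 CPM in library 2, cluster 5 held 67.2% and 36.5% of the cells and cluster 1 held 8.20% and 34.7%. In macrophage-gated cells the list was at 36154 and 45290 CPM, and cluster 5 held 36.0% and 13.8%. The bins of macrophage-list content are wide, and the last has no upper limit, so content can differ within a bin. In them the Ly6c2 log2 ratio was 0.99, -0.03, 1.20, 1.32, 0.37 and -0.62 from the lowest to the highest, of which the third and the fourth were called. The Ly6i ratio, not computed in the highest bin, was called in the second at -2.84, on 5 UMIs of library 1, and in the fourth at 1.34. The Ly6a log2 ratio in the highest bin was 1.40 and was called. The share of all genes called was not computed for the bins, so these calls have no background beside them.

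Ptprc-low collagen-low cells had 2 of 4 members called, against 4.23% of genes (2.90% higher and 1.33% lower in library 1). Ly6c1 was at 117 CPM in library 1 against 42.9 CPM in library 2, with a log2 ratio of 1.45 (1.29 to 1.60), and a single cell gave 20.5% of its UMIs in library 1. The part of the fibroblast list, also higher in library 1 in this gate, was not tested. Where cells also had to match the majority of their cluster the ratio was 0.95 and not called. Ly6c2 was called at -1.99 but on 3.59 and 14.3 CPM, beside free-RNA estimates of 7.84 and 14.03 CPM, whose part in the ratio was not tested.

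**Figure D4:**
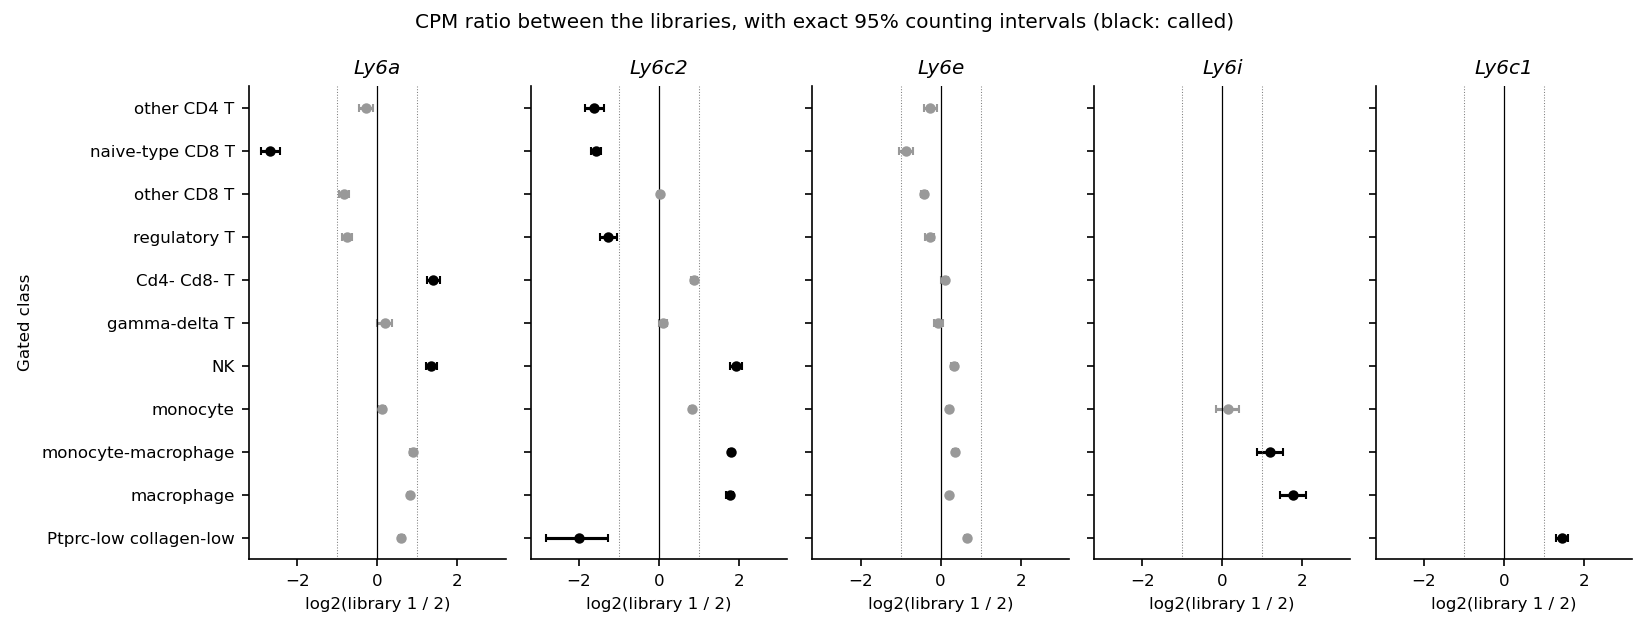
Log2 ratio of CPM in library 1 over library 2 (horizontal axes) for Ly6a, Ly6c2, Ly6e, Ly6i and Ly6c1 in the gated classes with at least 100 UMIs of the gene (vertical axis). Bars are exact 95% counting intervals, black points are called and grey points are not, and dotted lines mark 2-fold. Ly6c2 points lie on both sides of 0, at -1.61 in other CD4 T cells and 1.92 in NK-gated cells, while every Ly6e point lies within the dotted lines.

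The genes whose levels ran most like each member's were sought over 22 profiles, the 11 classes in each library, by Pearson's r of log2(CPM + 10) among 5001 genes. These r values describe profiles that share libraries and depth, and no p is given. Ly6a was most like Ube2l6 (r = 0.91), the conjugating enzyme for the interferon-induced modifier ISG15. For Ly6c2 the 5 closest were Ttc7, Ifi213, Ifi206, Ifi208 and Tmem243 (0.85 to 0.87), of which Ifi213, Ifi206 and Ifi208 belong to the interferon-induced p200 gene family. Ly6i was closest to Trem1 (0.93), a receptor of monocytes and neutrophils, and Slfn4 (0.90), and Ly6e to Tmbim6 (0.95), a membrane protein of the endoplasmic reticulum. Within the family Ly6a and Ly6e ran alike over these profiles (0.85) and Ly6c1 and Ly6c2 did not (-0.50). The 11 classes leave out the fibroblast, pDC, B and naive-type CD4 gates, among them the leading classes of Ly6a, Ly6c1, Ly6c2 and Ly6d. Ly6c1 lay between 0.0 and 117 CPM in the classes used, so its r rests largely on low counts.

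Levels were also set beside a list of 15 interferon-response genes. Over the 15 ranked classes, Spearman's rho between the summed list and the gene was 0.92 and 0.84 for Ly6a in library 1 and library 2 and 0.79 and 0.73 for Ly6e. It was 0.63 and 0.38 for Ly6i, 0.39 and 0.38 for Ly6c2 and 0.24 and 0.09 for Ly6c1. Bst2 is in this list and also in the list of the pDC gate. In pDC-gated cells it gave 4446 CPM of a summed 9332 CPM in library 1 and 3995 of 9043 CPM in library 2. Its part in the rho values was not tested. Monocyte-gated cells had the highest summed list, 11908 and 10696 CPM, and NK-gated cells the lowest, 1662 and 1105 CPM, and Ly6a was second lowest and lowest there.

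Other relatives were scarce. Of 31 further genes of the Ly6 and uPAR family, 29 were in the matrix and 3 reached 10 CPM in a class of both libraries. Plaur, the urokinase receptor, had 649 CPM in pDC-gated cells of library 1 and 656 CPM in monocyte-gated cells of library 2, its leading classes. It was the one further relative called, lower in library 1 in other CD8 cells, at 13.98 and 40.2 CPM. There 2 relatives were measured, beside 8.07% of all genes called (1.93% higher and 6.14% lower in library 1). Every other class held at most 2 measured relatives and 0 calls, so nothing is read from the single call. Ly6g5b led in gamma-delta T cells of both libraries at 35.2 and 33.2 CPM, and Lynx1, which binds nicotinic acetylcholine receptors, in pDC-gated cells at 28.7 and 15.7 CPM. The Lynx1 levels rest on few UMIs, as the pDC-gated cells held 209397 and 319158 UMIs of all genes. Of 11 genes of GPI anchor synthesis and attachment, 8 reached 10 CPM in a class of both libraries. Between libraries, 1 to 10 of the 11 held at least 100 UMIs in each of 9 classes, and 0 were called in any, beside 2.95% to 10.4% of all genes called in those classes, a count near that share for so few genes. Pgap2, which remodels the lipid of the anchor, led in migratory dendritic cells at 180.2 and 134 CPM, the class in which Ly6e was lowest.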

How the data were processed

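Droplet 3′ single-cell RNA sequencing was done on CD45+ cells of 2 tumour groups with 1 library each, per the labels' protocols. The authors deposited 1 matrix of raw UMI counts with no normalization, from Cell Ranger (version 3.1.0, per the file headers) and the mm10 build that the submitters' processing notes name. Annotation, cell calling, use of strand, read length, reads matching 2 genes and any subsampling: not given in the sources used here. Library numbers were read from barcode suffixes.

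Cells needed at least 200 genes, 500 UMIs and at most 10% mitochondrial UMIs. Scrublet's automatic threshold marked 0 barcodes in either library, so the 5% with the highest doublet scores, 266 and 360, were removed. Kept cells held 51769078 and 134639495 UMIs. Classes are gates on summed raw UMIs of 26 marker lists per 10000 UMIs; the lists were set by hand, and the gate limits after the data were examined. The gates took 3660 and 5645 cells and left 26.5% and 16.2% ungated. Cell clusters (Leiden, resolution 1, 2000 variable genes, 30 components, 15 neighbours) served as checks only. The list behind the naive-type gates holds a marker that is not reported here.

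Levels are CPM with exact Poisson intervals, shares have exact Clopper-Pearson intervals after thinning to 4000 UMIs, and ratios have exact conditional binomial intervals, at 95%. A count of 0 was set to a limit of 3 counts. The call rule was tested on simulated data. Members, lists and rules were chosen with earlier results of these data known. The ratios by bin of macrophage-list content were chosen after seeing the data. Genes named are the 7 members, genes of 3 lists (relatives, GPI anchor, interferon response), gate markers and the 5 genes most like each member, and a few named of these stand for the rest. Alternatives tried were doublets kept, a 5% mitochondrial limit, cells of at least 10000 UMIs, shared barcodes or cycling cells left out, stricter gates, gates with cluster majority, equal weight per cell, free RNA subtracted, and other ratio rules. Python 3.11.15, scanpy 1.11.5 and scipy 1.17.1 were used.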

Additional observations from a re-analysis of the deposited data

Results flagged for a closer look

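Ly6c2 differed between the libraries in opposite directions in different cell types. The log2 ratio of library 1 over library 2 was -1.61 in other CD4 T cells, -1.58 in naive-type CD8 T cells, -1.27 in regulatory T cells and -1.99 in Ptprc-low collagen-low cells. It was 1.92 in NK-gated cells, 1.80 in cells with both monocyte and macrophage lists and 1.76 in macrophage-gated cells. Ly6a likewise had -2.68 in naive-type CD8 T cells, 1.40 in T cells without Cd4 or Cd8 UMIs and 1.35 in NK-gated cells. The difference between classes was not tested, since each library is a single sample.

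Ly6d was also found in cells that no gate took. Ungated cells had 107 CPM in library 1 and 7.41 CPM in library 2, and 314 of 1317 and 19 of 1095 ungated cells held a Ly6d UMI. In library 1, 191 of those 314 cells reached the limit of the B cell list and 174 reached the limits of both the B cell and T cell lists; in library 2 none of the 19 reached the B cell limit.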

How the results depend on the processing

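The count of members with the same leading class, 4 of 6, was 3 to 5 under the 9 alternatives tried, and the count of called pairs, 13, was 9 to 14 under 11, so neither moved past 1.5 times. Ly6a, Ly6c1 and Ly6d kept their leading class in all 9. For Ly6a and Ly6c1 this rested on 6 fibroblast-gated cells of library 1 with stricter gates. For Ly6d it rested on 4 pDC-gated cells of library 2 with only cells of 10000 UMIs or more. Both are fewer than the 10 cells asked for in the main ranking. Ly6c2 led instead in cells with both monocyte and macrophage lists (library 1) and in monocyte-gated cells (library 2) with stricter gates, and in the first of these for library 1 with equal weight for each cell. Of the 13 called pairs, Ly6a in naive-type CD8 T cells changed sign, to 0.49, with stricter gates, which left 3 cells of library 2. Of the other 12, 6 were called under every alternative that gave a value: Ly6a in T cells without Cd4 or Cd8 UMIs (lowest 1.21), Ly6i in macrophage-gated cells (1.58 to 1.89), and Ly6c2 in NK-gated cells (1.60 to 2.31), macrophage-gated cells (1.72 to 2.40), cells with both myeloid lists (1.41 to 2.87) and other CD4 T cells (-1.88 to -1.12). Ly6c2 in Ptprc-low collagen-low cells was -0.96 and not called with stricter gates. Counts of a few UMIs limit Ly6g everywhere and Ly6d and Ly6i outside their leading classes. No paired analysis was possible because each group has 1 library and the labels give no replicate numbers.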

Other observations

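Ly6a was unevenly spread within monocyte-gated cells. After thinning to 4000 UMIs, 41.2% of these cells in library 1 and 51.5% in library 2 held no Ly6a UMI, while 31.6% and 27.8% held at least 5. Ly6e in the same cells was more even: 0.0% and 1.04% held none. In cells with both monocyte and macrophage lists Ly6a was absent from 6.56% in library 1 and 35.5% in library 2.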
